A study of Drosophila melanogaster with 91 samples.

Results

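The comparison set 9 of 91 individually sequenced Drosophila melanogaster embryos against each other, 5 labelled 180, 195, 210, 225 and 240 min and 4 labelled 60, 75, 90 and 105 min. Times count from cellularization, when furrows of membrane close around each nucleus of the syncytial embryo, which was observed in each embryo under a light microscope. The groups were set by labelled time, with earlier results of these data known, and all 9 embryos stood in 1 library pool. Each embryo was frozen at its time and its RNA sequenced by CEL-Seq, which counts reads at the 3′ ends of polyadenylated transcripts. The labels give no genotype, strain, treatment or sex for either group, and all embryos were dechorionated in bleach and kept at the same incubator temperature. Every time had 1 embryo, so the spread within a group holds differences between embryos and change over time together.

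In the fly, the first hours after cellularization take in gastrulation, in which mesoderm and gut fold inward, and the extension of the germ band, in which the trunk lengthens by cell rearrangement. The windows compared bracket, by their nominal stages, early germ-band extension and the time at which neuroblasts, the stem cells of the nervous system, leave the ventral ectoderm. Proneural genes of the achaete-scute complex mark the cell groups from which neuroblasts arise, and Delta and Notch restrict the number of neuroblasts within each group. The E(spl) complex holds genes of repressors that Notch signalling turns on. Before this, transcripts laid down by the mother are cleared and a first wave of embryonic genes drives cellularization.

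Depth ranged from 439350 gene counts at 210 min to 2670843 at 225 min, with a median of 2027556 over the 9 embryos. ERCC spike-in RNAs, synthetic transcripts added to each sample, took 16.4% of gene and spike-in counts at 210 min, against 3.91% to 4.67% in the other 8 embryos. Levels below are counts per 1000000 gene counts (CPM), used here to compare embryos for 1 gene and not genes with each other. In whole embryos, fewer cells that express a gene and less of its RNA per cell cannot be told apart.

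The 9 profiles did not fall cleanly into both windows. Over the 6025 genes tested, the embryos of 75, 90 and 105 min were most like each other, with Spearman correlations of log2(CPM + 1) from 0.855 to 0.903. The single embryo most like that of 60 min was that of 180 min, at 0.882, followed by that of 240 min at 0.864, while those of 75, 90 and 105 min had 0.778, 0.845 and 0.854 with it. Its mean correlation was nonetheless 0.773 with the embryos of 180 to 240 min and 0.826 with those of its own group. The embryo of 180 min averaged 0.757 with the other embryos of 180 to 240 min and 0.809 with those of 60 to 105 min. Among all 91 embryos, the one of 195 min was closest to those of 285, 270 and 255 min. The one of 225 min was closest to those of 375, 780 and 540 min, with 0.892 to the first. These correlations are a description, and the library at 210 min had the lowest depth of the 9.

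**Figure D1:**
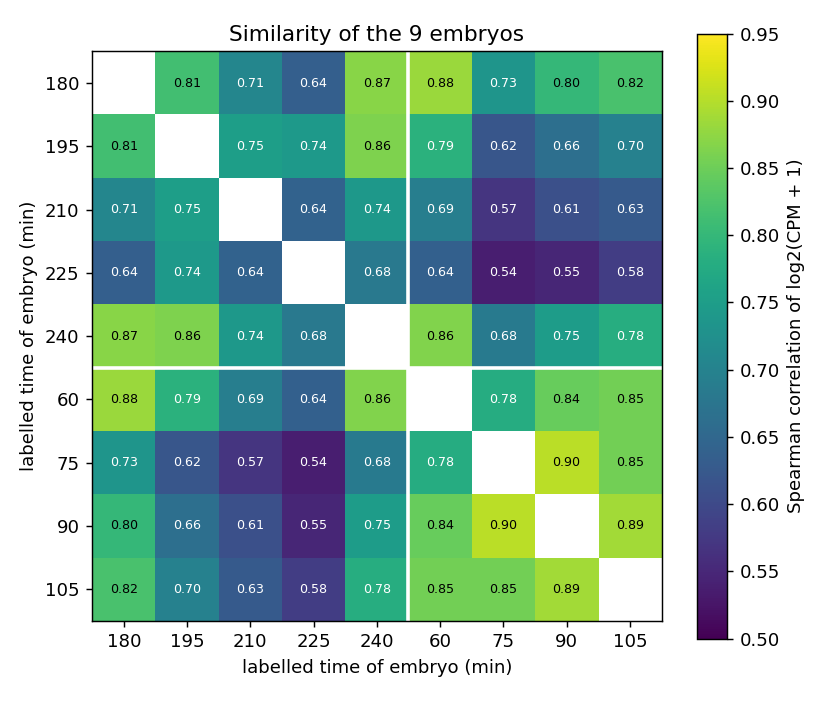
Spearman correlation of log2(CPM + 1) over the 6025 tested genes for each pair of the 9 embryos, with labelled time in min on both axes and white lines between the groups. The embryo of 60 min has 0.882 with that of 180 min and 0.778 to 0.854 with those of 75, 90 and 105 min, and the embryos of 75, 90 and 105 min have 0.855 to 0.903 with each other.

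Marker genes went partly against the nominal stages. slam (FBgn0043854), which the cellularization furrow needs for its growth, had 8.01, 0, 0, 0 and 0 CPM at 180, 195, 210, 225 and 240 min, against 5.56, 2030, 608 and 73.9 CPM at 60, 75, 90 and 105 min. The mean of slam over the 5 embryos of -15 to 45 min was 194 CPM, below the values at 75 and 90 min. en, the selector gene of posterior compartments, stood at 69.2 CPM at 60 min but at 0, 0 and 0.61 CPM at 75, 90 and 105 min. The groups are therefore called by their labelled times. The 9 neuroblast markers summed to 250 to 748 CPM at 180 to 240 min (median 685) and to 357 to 643 CPM at 60 to 105 min (median 578). Single markers went in both directions. wor, a neuroblast factor of the Snail family, had 0, 32.3, 0, 19.8 and 2.96 CPM at 180, 195, 210, 225 and 240 min, against 0, 0, 0 and 0 CPM at 60, 75, 90 and 105 min. repo, the glial homeobox gene, had 0, 0.910, 13.7, 43.8 and 3.45 CPM at 180, 195, 210, 225 and 240 min, against 0, 0, 0 and 0 CPM at 60, 75, 90 and 105 min, with its highest value in the embryo of 225 min. Other markers of neuroblasts and glia were counted in all 4 embryos of 60 to 105 min, with 38.5 to 68.2 CPM for dpn, 246 to 392 CPM for mira and 6.87 to 131 CPM for gcm. At 180 to 240 min those 3 had 5.34 to 44.1, 137 to 366 and 11.4 to 269 CPM. The 4 cuticle genes of late embryos had no count in the 4 embryos of 60 to 105 min and summed to at most 6.74 CPM at 180 to 240 min. The 7 genes of the egg chamber and eggshell summed to 3.45 to 21.4 CPM at 180 to 240 min and 2.53 to 5.49 CPM at 60 to 105 min.

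At 180 to 240 min, 7 of 12 tested genes of cellularization and the first embryonic transcription fell, slam and Sry-alpha among them. So did 10 of 32 proteasome subunits, a list drawn up after its values were seen. Without the libraries of 210 and 225 min, 1 of 13 and 0 of 33 of these fell. The Notch target genes E(spl)mgamma-HLH and E(spl)mdelta-HLH rose, 2 of 6 tested in their complex, as did the adhesion gene Fas2, the laminin gene LanA and the mitotic activator stg. By edgeR's quasi-likelihood test, with p-values adjusted over 6025 genes, 82 genes rose (1.36%) and 97 fell (1.61%) at an adjusted p under 0.05, or 2.97% of genes in either direction. The median log2 change was 3.06 among the genes that rose, -2.31 among those that fell and 0.0427 among all genes. At an unadjusted p under 0.05 there were 1268 genes. With 2.97% of genes called, 0 calls among the 4 to 13 tested members of a list is no result about that list. A single call in a list is likewise a result about that gene and not about the list. CPM ranges of both groups did not overlap in 66 of the 82 and in 85 of the 97, against 3.27% of all tested genes higher without overlap and 7.39% lower without overlap. The test picks genes whose groups lie apart in these embryos, so frequent ranges without overlap are part of the choice.

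These calls rested on few embryos. Leaving out the embryo of 90, 105 or 195 min left 0 genes called in either direction by edgeR, with 942, 1014 and 993 genes at an unadjusted p under 0.05. With the same embryos left out, limma voom called 0 to 1 genes higher and 0 to 1 lower, and DESeq2 called 206 to 242 higher and 144 to 229 lower. Leaving out the embryo of 75 min left 2 higher and 1 lower, that of 210 min 15 and 17, and that of 240 min 19 and 13. Without that of 180 min there were 152 higher and 164 lower, without that of 60 min 130 and 149, and without that of 225 min 85 and 143. With the libraries of 210 and 225 min left out, the counts were 17 higher (0.28%) and 24 lower (0.396%), of which 34 were among the 179 calls above. Among the genes of all lists, those that passed there were Sry-alpha, E(spl)mgamma-HLH, Fas2, sim, RnrL and l(1)sc. Without those of 60 and 225 min, chosen after their profiles were seen, the counts were 220 higher (3.64%) and 274 lower (4.54%). Each of the 179 calls that could be fitted kept its sign whichever single embryo was left out. The calls were chosen for large changes in these same embryos, so a kept sign is largely part of that choice. At 60 min the level was the lowest of the 4 embryos in 90 of the 97 genes that fell and the highest of the 4 in 51 of the 82 that rose. At 225 min it was the highest of the 5 embryos in 43 of the 82. The same shares over all tested genes were not computed, so these counts are not shown to be particular to the called genes.

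**Figure D2:**
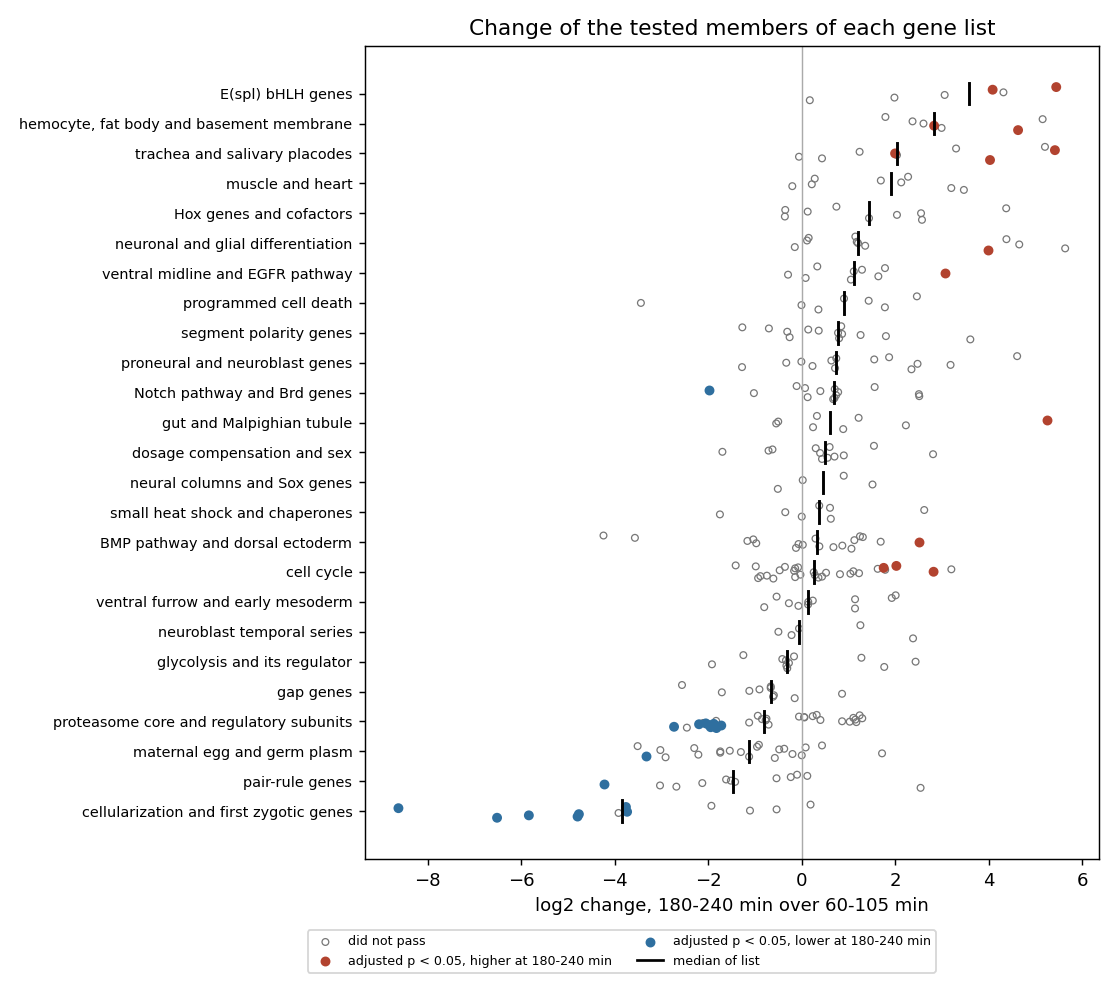
Log2 change of 180 to 240 min over 60 to 105 min for each tested member of 25 gene lists, ordered by list median (black bars). Filled points passed an adjusted p of 0.05, red higher and blue lower at 180 to 240 min, and open points did not pass. The medians run from -3.84 for cellularization and first zygotic genes to 3.57 for the E(spl) bHLH genes.

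Of 15 cellularization and first zygotic genes in the table, 12 were tested, of which 7 fell (58.3%, against 1.61% of all genes) and 0 rose. The median log2 change was -3.84, against 0.0427 over all genes. Sry-alpha (FBgn0003510), a membrane-linked protein of the cellularization furrow, had 13.3, 9.56, 6.83, 3.00 and 36.0 CPM at 180, 195, 210, 225 and 240 min, against 49.0, 745, 581 and 281 CPM at 60, 75, 90 and 105 min. No embryo of 180 to 240 min reached the lowest of the other group, and the fall was -4.77 ± 0.78 on the log2 scale (SE, adjusted p = 0.0188). slam fell by the most of all called genes, a log2 change of -8.63 ± 1.64 (SE, adjusted p = 0.0236), but its groups overlapped, since the embryo of 60 min held 5.56 CPM and that of 180 min 8.01 CPM. Without the embryo of 180 min the other 4 stood at 0, and the fitted log2 change was -13.3, which sets no bound. halo, which directs the movement of lipid droplets in the cellularizing embryo, had 86.8, 61.0, 56.9, 1.87 and 96.2 CPM at 180, 195, 210, 225 and 240 min, against 154, 2151, 1016 and 252 CPM at 60, 75, 90 and 105 min (log2 change -3.74 ± 0.88 SE, adjusted p = 0.0419). term, a gene of early zygotic transcription, showed a log2 change of -3.76 ± 0.88 (SE, adjusted p = 0.0409), with 195.6 CPM at 180 min and 254.1 CPM at 60 min as the closest values. Elba1, Elba2 and Elba3, whose products form a complex that binds boundary DNA in the early embryo, fell together with log2 changes of -6.52, -4.80 and -5.84. Elba1 had 15.4, 0, 0, 0 and 9.37 CPM at 180, 195, 210, 225 and 240 min, against 60.1, 722, 1165 and 118 CPM at 60, 75, 90 and 105 min. dunk, needed for the actomyosin network at cellularization, had a log2 change of -3.92 with an adjusted p of 0.0505. kuk, a nuclear lamina gene, had 991, 661, 362, 242 and 969 CPM at 180, 195, 210, 225 and 240 min, against 942, 1479, 1387 and 2146 CPM at 60, 75, 90 and 105 min, overlapping ranges and a log2 change of -1.11 ± 0.38 (SE, adjusted p = 0.128). With the libraries of 210 and 225 min left out, 1 of 13 tested members fell, Sry-alpha, and without those of 60 and 225 min 10 of 13 did. The list median was -3.70 and -3.97 in those fits.

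Among the rest of the 12 genes with the largest falls, Z600, an inhibitor of mitosis in gastrulating cells, had 8.01, 0.910, 2.28, 2.62 and 9.37 CPM at 180, 195, 210, 225 and 240 min, against 20.7, 696, 312 and 177 CPM at 60, 75, 90 and 105 min. Its groups did not overlap, and the change was -5.86 ± 0.90 on the log2 scale (SE, adjusted p = 0.0151). Brother (Bro), which encodes a partner of Runt domain factors, had 2.67, 0, 0, 0 and 5.42 CPM at 180, 195, 210, 225 and 240 min, against 12.1, 121, 144 and 34.2 CPM at 60, 75, 90 and 105 min (log2 change -5.33 ± 1.08 SE, adjusted p = 0.0268). STUB1, a co-chaperone with ubiquitin ligase activity, had 0 to 6.83 CPM at 180 to 240 min and 5.05 to 100.8 CPM at 60 to 105 min, with overlap (log2 change -6.16 ± 1.29 SE, adjusted p = 0.0297). bard showed a log2 change of -5.07 ± 0.97 (SE, adjusted p = 0.0236) with no overlap. Drep1, of the DNA fragmentation factor family, and Dhit showed log2 changes of -5.00 and -4.45, each with no overlap. The nuclear receptor ftz-f1, a cofactor of the pair-rule protein Ftz, had 18.0, 0.910, 0, 3.37 and 11.8 CPM at 180, 195, 210, 225 and 240 min, against 26.3, 360.1, 140.2 and 62.3 CPM at 60, 75, 90 and 105 min (log2 change -4.23 ± 0.91 SE, adjusted p = 0.0325).

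Of 29 maternal genes of the egg and germ plasm in the table, 21 were tested, with 1 fall (4.76%, against 1.61% of all genes), 0 rises and a median log2 change of -1.13. Marf1, an RNA-binding protein of oocytes, fell: it had 19.4, 7.74, 0, 8.99 and 12.8 CPM at 180, 195, 210, 225 and 240 min, against 28.3, 164, 151 and 100.1 CPM at 60, 75, 90 and 105 min (log2 change -3.34 ± 0.65 SE, adjusted p = 0.0236). smg, whose product clears maternal transcripts, had 2.28 to 34.1 CPM at 180 to 240 min and 33.3 to 312 CPM at 60 to 105 min, with a log2 change of -2.30, which was -1.22 without the embryo of 75 min, and an adjusted p of 0.0746. Both were far higher earlier, with means over the embryos of -15 to 45 min of 786 CPM for Marf1 and 1258 CPM for smg. Marf1, smg, tor, bcd, plu and me31B, 6 of 23 tested members, fell without the libraries of 60 and 225 min.

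Before 60 min the genes that fell were split, near the share of all tested genes with a negative log2 change. In 48 of the 97 (49.5%) the mean over -15 to 45 min lay above that of 60 to 105 min, as for Marf1, against 52.9% of the 2900 tested genes with a negative log2 change, and in 49 it lay below, as for Sry-alpha, with 41.6 CPM over -15 to 45 min. At 135 to 165 min, outside both windows, the mean of 80 of the 97 (82.5%) lay between the means of both groups, against 36.8% of those 2900. That mean rests on the embryos of 135, 150 and 165 min, with only 561108 gene counts at 135 min and 609408 at 150 min. In some genes the embryo of 150 min set it: at 135, 150 and 165 min Sry-alpha had 42.8, 335 and 36.9 CPM and slam 0, 113 and 6.95 CPM. In others it did not, as for term, with 160, 1.64 and 122 CPM. A graded fall cannot be read from this mean. By 255 to 315 min all 97 were below their mean at 60 to 105 min, against 87.2% of the 2900, and 71 were below their mean at 180 to 240 min. All called genes share the 4 embryos of 60 to 105 min that chose them, so a high mean there is part of the choice. So is a wide gap between both group means, which makes a mean inside or below that gap more frequent by construction. For the means at 135 to 165 and 255 to 315 min, the shares of the 2900 are therefore no like measure.

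Subunits of the proteasome, the protease that degrades ubiquitin-tagged proteins, gave 10 falls (31.2%, against 1.61% of all genes) and 0 rises among 32 tested. All 10 falls were in the core particle, and the median log2 change of the list was -0.81. This list was drawn up after its values were seen. All 7 alpha and all 7 beta subunits of the core particle had negative log2 changes, with medians of -1.91 and -1.98, and 6 and 4 of them passed the test. Among all 6025 genes tested, 2900 had negative log2 changes. Of 18 tested subunits of the regulatory particle 0 passed, 6 had negative log2 changes, and the median was 0.275, with a range from -1.83 to 1.29. Prosbeta5, a catalytic subunit, had 95.5, 46.4, 34.1, 56.5 and 64.6 CPM at 180, 195, 210, 225 and 240 min, against 128, 305, 299 and 331 CPM at 60, 75, 90 and 105 min. The groups did not overlap, and the change was -2.05 ± 0.38 on the log2 scale (SE, adjusted p = 0.0236). Prosalpha4 had 30.0, 25.5, 13.7, 23.6 and 19.7 CPM at 180, 195, 210, 225 and 240 min, against 48.0, 296, 220.2 and 87.9 CPM at 60, 75, 90 and 105 min (log2 change -2.73 ± 0.50 SE, adjusted p = 0.0236). Prosalpha7 had 95.6 to 196.3 CPM at 180 to 240 min and 226.8 to 732.6 CPM at 60 to 105 min (log2 change -1.72 ± 0.34 SE, adjusted p = 0.0236), and Prosbeta3 a log2 change of -2.20. Pomp, the assembly chaperone of the core particle and outside the list, also fell (log2 change -1.90 ± 0.47 SE, adjusted p = 0.0491). Rpn2, a scaffold of the regulatory particle, had 100.1, 118, 43.2, 157 and 89.3 CPM at 180, 195, 210, 225 and 240 min, against 79.3, 63.7, 64.0 and 118 CPM at 60, 75, 90 and 105 min, with a log2 change of 0.40 and an adjusted p of 0.571. Whether core and regulatory subunits differed from each other was not tested. At 60 min each core subunit named here was at its lowest of the 4 embryos of its group. Leaving out the libraries of 210 and 225 min, 0 of the list passed, and without those of 60 and 225 min 13 of 33 fell and 0 rose.

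**Figure D3:**
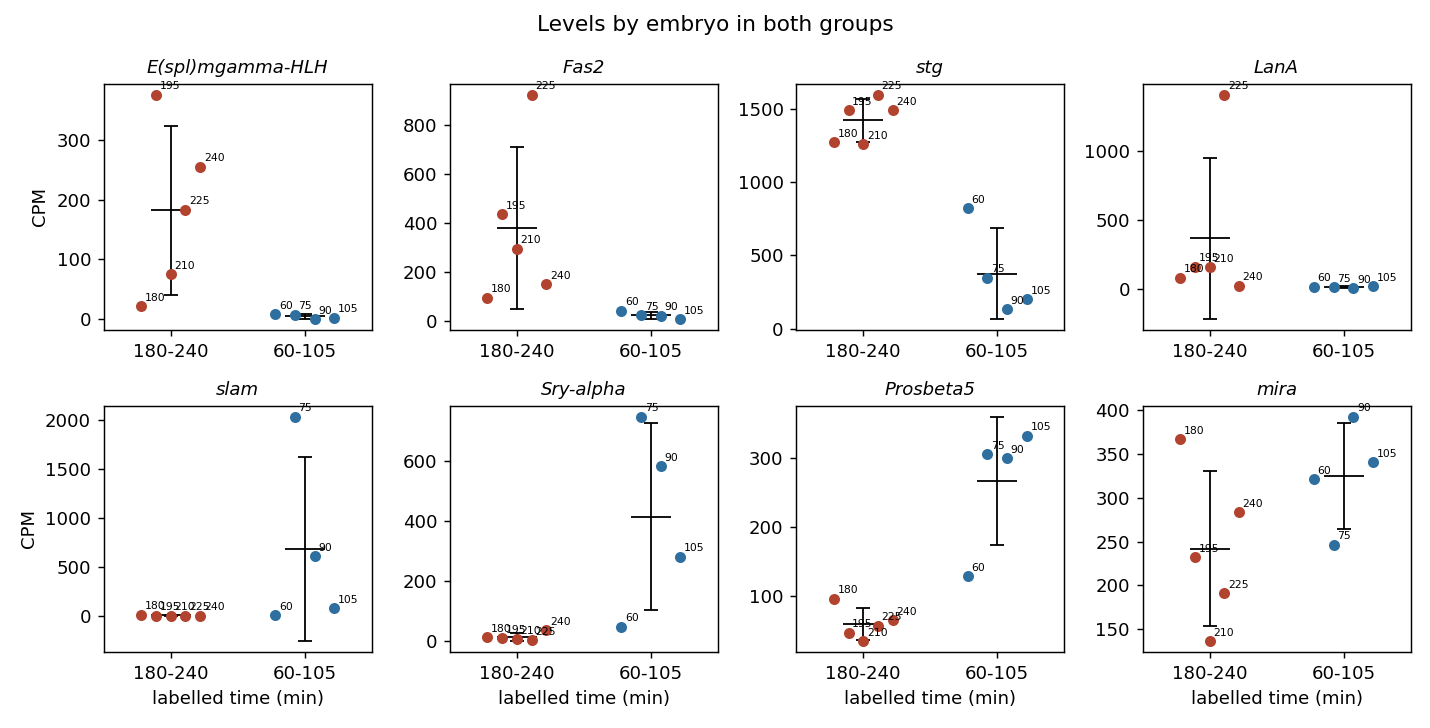
CPM by embryo at 180 to 240 min (red, left in each panel) and 60 to 105 min (blue, right), each point labelled with its time in min, with mean and SD in black and axes that differ between panels. E(spl)mgamma-HLH, Fas2, stg and LanA rose and slam, Sry-alpha and Prosbeta5 fell. mira overlapped, with 137 to 366 CPM at 180 to 240 min and 246 to 392 CPM at 60 to 105 min.

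Of 35 tested segmentation genes of 3 lists 1 was called (2.86%, against 2.97% of all genes). All 10 gap genes were tested and 0 passed, with a median log2 change of -0.67, 9 of 10 negative. Of 12 pair-rule genes 1 fell, ftz-f1, and 0 rose, with a median of -1.47, which was -0.90 without the libraries of 210 and 225 min. eve, which sets up odd-numbered parasegments, had 32.7, 0, 25.0, 0 and 9.86 CPM at 180, 195, 210, 225 and 240 min, against 50.0, 81.1, 106 and 129 CPM at 60, 75, 90 and 105 min, without overlap, and a log2 change of -2.68 with an adjusted p of 0.173. ftz, which acts in the even-numbered ones, had 0 to 48.1 CPM at 180 to 240 min and 78.8 to 161.6 CPM at 60 to 105 min, without overlap (adjusted p = 0.101). It passed without the embryo of 180 min, the highest of its group, with a log2 change of -5.14, a gap widened by construction. hry, a pair-rule repressor, had 0 to 68.8 CPM at 180 to 240 min and 84.9 to 272 CPM at 60 to 105 min, also without overlap (adjusted p = 0.0842). run, the pair-rule gene of the Runt domain family, overlapped, with 52.4 to 169.6 CPM at 180 to 240 min and 104.5 to 217.7 CPM at 60 to 105 min.

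None of 13 tested segment polarity genes passed, with a median log2 change of 0.77. hh, the Hedgehog ligand, had 246, 158, 171, 182 and 185 CPM at 180, 195, 210, 225 and 240 min, against 335, 33.9, 15.1 and 88.5 CPM at 60, 75, 90 and 105 min. Its highest value of the 9 was at 60 min, and the change was 0.77 ± 0.67 on the log2 scale (SE, adjusted p = 0.54). en had 60.8, 59.6, 0, 63.3 and 111 CPM at 180, 195, 210, 225 and 240 min, against 69.2, 0, 0 and 0.610 CPM at 60, 75, 90 and 105 min, with an adjusted p of 0.481. Leaving out the embryo of 60 min alone, both hh and en passed, with log2 changes of 2.15 and 8.04, the second against embryos at or near 0. That embryo held the highest value of its group for both genes, so leaving it out widens the gap between the groups by construction. In the fit without 60 and 225 min, 4 of 13 rose, en, hh, Wnt4 and fz2, and the list median was 1.93.

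Hox genes set segment identity along the body, and the list also held exd, hth and tsh, which act with them and are not Hox genes of the complexes. Of the 9 members tested 0 passed and 7 had positive log2 changes (median 1.44). The 6 Hox genes among them had a median of 2.29, with 5 positive. Ubx, of the posterior thorax, had 74.1, 166, 25.0, 222 and 138 CPM at 180, 195, 210, 225 and 240 min, against 53.5, 30.7, 14.7 and 27.5 CPM at 60, 75, 90 and 105 min (log2 change 2.03 ± 0.55 SE, adjusted p = 0.0618). abd-A, of the abdomen, had 82.1 to 534.7 CPM at 180 to 240 min and 10.5 to 120.7 CPM at 60 to 105 min (log2 change 2.55 ± 0.77 SE, adjusted p = 0.0842), with its highest value in the earlier window at 60 min. Abd-B, of the most posterior segments, had 50.7 to 129.2 CPM at 180 to 240 min and 0 to 38.9 CPM at 60 to 105 min, without overlap, and a log2 change of 2.57 (adjusted p = 0.117). lab, of the head, had 6.83 to 23.6 CPM at 180 to 240 min and 0 to 3.03 CPM at 60 to 105 min, without overlap, and a log2 change of 4.37 (adjusted p = 0.0646). Without the embryo of 60 min lab and abd-A passed, with log2 changes of 7.97 and 4.03, the first against embryos at 0. Both had their highest value of that group in the embryo left out, which widens the gap by construction. The same fit without 60 and 225 min called 4 higher, lab, Ubx, abd-A and Abd-B.

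Of the bHLH repressor genes of the E(spl) complex, targets of Notch signalling, the 6 tested all had positive log2 changes with a median of 3.57. Of these 6, 2 rose past the threshold (33.3%, against 1.36% of all genes). Among all 6025 genes tested, 3125 had positive log2 changes. E(spl)mgamma-HLH (FBgn0002735) had 21.4, 376, 75.1, 183 and 255 CPM at 180, 195, 210, 225 and 240 min, against 7.58, 7.33, 0 and 2.44 CPM at 60, 75, 90 and 105 min. All 5 embryos of 180 to 240 min were above the 4 others, with the least at 180 min, and the rise was 5.44 ± 0.96 on the log2 scale (SE, adjusted p = 0.0236). E(spl)mdelta-HLH had 43.4, 465, 79.7, 147 and 205 CPM at 180, 195, 210, 225 and 240 min, against 10.1, 33.0, 0 and 3.66 CPM at 60, 75, 90 and 105 min, without overlap (log2 change 4.08 ± 1.00 SE, adjusted p = 0.0473). E(spl)mbeta-HLH had 4.01 to 164 CPM at 180 to 240 min and 0 to 11.9 CPM at 60 to 105 min, with overlap (log2 change 4.31 ± 1.35 SE, adjusted p = 0.0971). Of the embryos of 60 to 105 min only that of 75 min had a count, and without it the fitted log2 change was 9.78, which sets no bound. E(spl)m8-HLH had 7.34 to 70.0 CPM at 180 to 240 min and 0 to 6.57 CPM at 60 to 105 min, without overlap (log2 change 3.05 ± 0.90 SE, adjusted p = 0.0794). E(spl)m7-HLH had a log2 change of 1.98 with an adjusted p of 0.0972. Without the libraries of 210 and 225 min 1 of 6 rose, E(spl)mgamma-HLH, and without those of 60 and 225 min both did. The list median lay between 3.26 and 4.56 under the other scalings, limma voom and these left-out libraries.

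Other genes of the pathway gave 1 call. Of 14 tested genes of Notch signalling and the Bearded family, 1 fell (7.14%, against 1.61% of all genes) and 0 rose. The median log2 change was 0.68. Su(H), the DNA-binding factor through which Notch acts, fell (log2 change -1.99 ± 0.49 SE, adjusted p = 0.0477), with 42.1, 19.6, 47.8, 35.9 and 53.3 CPM at 180, 195, 210, 225 and 240 min, against 53.5, 258, 257 and 118 CPM at 60, 75, 90 and 105 min. N, the receptor, had 641, 704, 307, 607 and 619.5 CPM at 180, 195, 210, 225 and 240 min, against 373, 331, 365 and 354 CPM at 60, 75, 90 and 105 min, with the embryo of 210 min below the earlier ones and the other 4 above them, and a log2 change of 0.78 and an adjusted p of 0.0976. Delta, the ligand, had 327.6 to 1491 CPM at 180 to 240 min and 511.8 to 1437 CPM at 60 to 105 min, with a log2 change of 0.12 whose sign turned under spike-in scaling. E(spl)malpha-BFM, a Bearded family gene of the same complex, had a log2 change of 2.50 and an adjusted p of 0.0846. Tom, another of that family, had 742 to 2564 CPM at 180 to 240 min and 797 to 1702 CPM at 60 to 105 min (adjusted p = 0.276).

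Of 13 tested proneural and neuroblast genes 0 passed, and the median log2 change was 0.74, against 0.0427 over all genes. ac, a proneural gene, had 18.7, 24.6, 50.1, 0 and 35.5 CPM at 180, 195, 210, 225 and 240 min, against 6.57, 7.33, 5.86 and 2.44 CPM at 60, 75, 90 and 105 min, with a log2 change of 2.34 and an adjusted p of 0.215. l(1)sc, the proneural gene of the widest expression in the early neuroectoderm, had 52.1, 110.1, 6.83, 10.1 and 77.4 CPM at 180, 195, 210, 225 and 240 min, against 14.7, 8.25, 11.3 and 4.27 CPM at 60, 75, 90 and 105 min. The embryos of 210 and 225 min overlapped the earlier group and the other 3 did not, and the change was 2.47 ± 0.75 on the log2 scale (SE, adjusted p = 0.0876). dpn, a neuroblast repressor, had 5.34, 44.1, 11.4, 34.1 and 8.88 CPM at 180, 195, 210, 225 and 240 min, against 59.1, 38.5, 68.2 and 48.2 CPM at 60, 75, 90 and 105 min (log2 change -1.28 ± 0.58 SE, adjusted p = 0.227). mira, which carries fate determinants to the daughter cell when neuroblasts divide, had 366, 232, 137, 191 and 284 CPM at 180, 195, 210, 225 and 240 min, against 321, 246, 392 and 341 CPM at 60, 75, 90 and 105 min, overlapping ranges and a log2 change of -0.33 ± 0.31 (SE, adjusted p = 0.56). pros and brat, determinants passed to that daughter, had log2 changes of 0.74 (adjusted p = 0.418) and 0.71 (adjusted p = 0.161). l(1)sc passed without the libraries of 210 and 225 min, and l(1)sc, ac and klu passed without those of 60 and 225 min. Of the 5 tested factors of the neuroblast temporal series, which act one after another in the same stem cell, 0 passed. The first of them, hb, had a log2 change of -0.50 ± 0.47 (SE, adjusted p = 0.573), and the later pdm2 had 67.4 to 344 CPM at 180 to 240 min and 49.9 to 95.98 CPM at 60 to 105 min (adjusted p = 0.136).

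Of 11 tested genes of neurons and glia 1 rose (9.09%, against 1.36% of all genes). Fas2 (FBgn0000635), an adhesion molecule of axons and epithelia, had 96.1, 435, 296, 921 and 151 CPM at 180, 195, 210, 225 and 240 min, against 43.5, 24.7, 23.0 and 9.77 CPM at 60, 75, 90 and 105 min. All 5 embryos of 180 to 240 min were above the other 4, and the rise was 3.98 ± 0.67 on the log2 scale (SE, adjusted p = 0.0188). It also passed without the libraries of 210 and 225 min. elav, the pan-neuronal RNA-binding protein, had 146, 274, 86.5, 1482 and 349 CPM at 180, 195, 210, 225 and 240 min, against 302, 66.4, 224 and 148 CPM at 60, 75, 90 and 105 min, highest at 225 min (log2 change 1.35 ± 0.69 SE, adjusted p = 0.281). Without the embryo of 225 min the log2 change of elav was 0.30. fne, of the same family, had 1005 CPM at 225 min, at most 50.1 CPM in the other embryos of 180 to 240 min, and 2.51 to 13.1 CPM at 60 to 105 min (adjusted p = 0.0725). gcm, the switch to glial fate, had a log2 change of 1.17 and an adjusted p of 0.394. Of 9 tested genes of the ventral midline and the EGFR pathway 1 rose (11.1%, against 1.36% of all genes). This was the midline regulator sim, with 33.4, 18.7, 11.4, 11.6 and 31.6 CPM at 180, 195, 210, 225 and 240 min, against 5.05, 2.29, 2.09 and 1.22 CPM at 60, 75, 90 and 105 min (log2 change 3.07 ± 0.71 SE, adjusted p = 0.0407). sim also passed without the libraries of 210 and 225 min.

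Of 28 tested cell cycle genes 3 rose (10.7%, against 1.36% of all genes) and 0 fell. The median log2 change was 0.27, and 0.41 without the libraries of 60 and 225 min. stg (FBgn0003525), the Cdc25 phosphatase that starts mitosis after cellularization, had 1274, 1491, 1259, 1598 and 1493 CPM at 180, 195, 210, 225 and 240 min, against 822, 347, 134 and 202 CPM at 60, 75, 90 and 105 min. The lowest of 180 to 240 min, 1259 CPM, was above the 822 CPM of 60 min, and the rise was 2.02 ± 0.44 on the log2 scale (SE, adjusted p = 0.0333). fzr, which promotes the destruction of mitotic cyclins as cells leave the cycle, had 179.6, 287, 162, 270 and 234 CPM at 180, 195, 210, 225 and 240 min, against 121, 47.2, 67.0 and 50.7 CPM at 60, 75, 90 and 105 min (log2 change 1.75 ± 0.36 SE, adjusted p = 0.0297). RnrL, the large subunit of the enzyme that makes deoxynucleotides, had 40.1, 52.8, 11.4, 15.3 and 33.0 CPM at 180, 195, 210, 225 and 240 min, against 4.04, 2.29, 9.21 and 2.44 CPM at 60, 75, 90 and 105 min (log2 change 2.82 ± 0.68 SE, adjusted p = 0.0452). Cdc45, a replication fork factor outside the list and chosen after its values were seen, rose too (log2 change 2.47 ± 0.55 SE, adjusted p = 0.0366). The mean of stg over -15 to 45 min was 1591 CPM, that of RnrL 148.8 CPM and that of Cdc45 104 CPM, each above its mean at 180 to 240 min. CycB3, a mitotic cyclin, had 5094, 1340, 1234, 348 and 3510 CPM at 180, 195, 210, 225 and 240 min, against 3765, 4496, 5517 and 4613 CPM at 60, 75, 90 and 105 min, with a log2 change of -0.89 and an adjusted p of 0.365. CycE, of the G1 to S step, and Cdk1 had log2 changes of -0.75 (adjusted p = 0.317) and -0.94 (adjusted p = 0.139). dap, an inhibitor of CycE, had 0 to 479 CPM at 180 to 240 min, highest at 225 min, and 4.61 to 18.7 CPM at 60 to 105 min (adjusted p = 0.113). The list median was -0.18 under spike-in scaling. Without the libraries of 210 and 225 min 1 of 28 rose, RnrL.

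**Figure D4:**
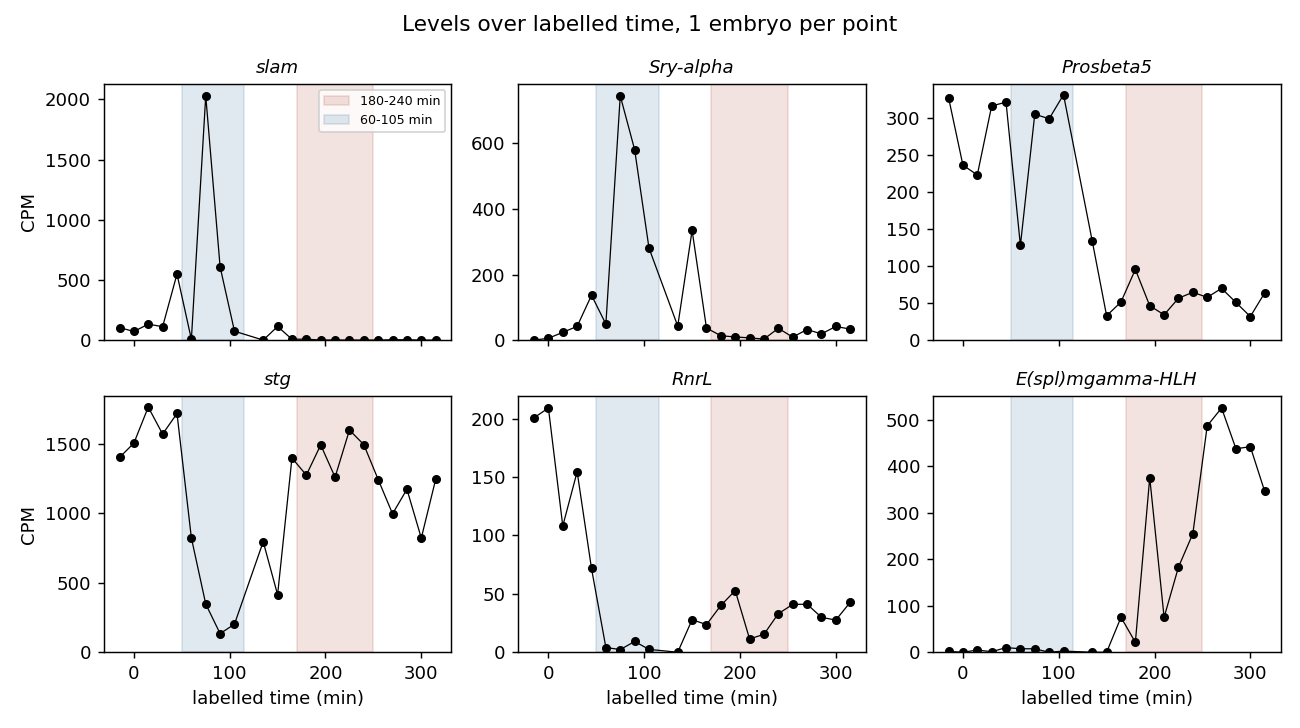
CPM in each embryo of -15 to 315 min of labelled time (min), without the library of 120 min, which held 3662 gene counts, with both windows shaded. slam and Sry-alpha peak at 75 min, stg is at its lowest from 75 to 105 min, RnrL holds at most 9.21 CPM from 60 to 105 min, and E(spl)mgamma-HLH is at 21.4 CPM or more in every embryo from 165 min on.

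The 82 genes that rose were chosen for low values at 60 to 105 min, so a dip there is part of the choice. In 40 of the 82 (48.8%) the mean over -15 to 45 min was above that of 60 to 105 min, as for stg and RnrL, against 63.9% of the 3125 tested genes with a positive log2 change. It was also above that of 180 to 240 min in 15 (18.3%), against 53.2% of those 3125. At 135 to 165 min, where the libraries of 135 and 150 min were shallow, the mean of 74 of the 82 (90.2%) lay between the means of both groups, against 31.6%. A wide gap between both group means is also part of the choice of the 82. A mean inside that gap, or on its far side at 255 to 315 min, is therefore more frequent among them by construction. The shares of the 3125 are no like measure for this. By 255 to 315 min all 82 were above their mean at 60 to 105 min, against 81.9%, and 68 were above their mean at 180 to 240 min. E(spl)mgamma-HLH reached 447.6 CPM and Fas2 488.3 CPM on average there.

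Of 9 tested genes of the tracheal and salivary gland placodes 3 rose (33.3%, against 1.36% of all genes), with a median log2 change of 2.03. CrebA, which turns on secretory pathway genes in the salivary gland, had 130.2, 393, 514, 571 and 248 CPM at 180, 195, 210, 225 and 240 min, against 74.3, 15.1, 9.63 and 0 CPM at 60, 75, 90 and 105 min (log2 change 4.02 ± 0.97 SE, adjusted p = 0.0452). rib, a BTB protein of both organs, overlapped: it had 200.3, 905, 888, 2046 and 670.3 CPM at 180, 195, 210, 225 and 240 min, against 238, 198, 288 and 282 CPM at 60, 75, 90 and 105 min (log2 change 1.99 ± 0.48 SE, adjusted p = 0.0452). sas, a surface protein of epithelia, had 22.0, 15.0, 13.7, 77.5 and 13.3 CPM at 180, 195, 210, 225 and 240 min, against 2.02, 0, 0 and 0.610 CPM at 60, 75, 90 and 105 min (log2 change 5.41 ± 1.07 SE, adjusted p = 0.0245). trh, the master gene of the trachea, had 2.96 to 86.1 CPM at 180 to 240 min and 0 to 10.6 CPM at 60 to 105 min (adjusted p = 0.155), and passed without the embryo of 60 min. That embryo held the 10.6 CPM, so leaving it out widens the gap by construction. vvl, a POU factor of the trachea, had 1381 CPM at 225 min and at most 102.9 CPM in the other 8 embryos (adjusted p = 0.0707). Without the libraries of 210 and 225 min 0 of the list passed.

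Of 7 tested genes of hemocytes, fat body and basement membrane 2 rose (28.6%, against 1.36% of all genes). All 7 had positive log2 changes, against 3125 of all 6025 genes tested, with a median of 2.83. LanA, the laminin alpha chain of basement membranes, had 83.5, 164, 162, 1407 and 26.6 CPM at 180, 195, 210, 225 and 240 min, against 17.7, 15.1, 7.95 and 20.8 CPM at 60, 75, 90 and 105 min. The groups did not overlap, the embryo of 225 min was far above the rest, and the rise was 4.62 ± 1.00 on the log2 scale (SE, adjusted p = 0.0333). Without that embryo LanA passed with a log2 change of 3.01. NimC4, a receptor of phagocytes, had 257, 1240, 426, 1901 and 364 CPM at 180, 195, 210, 225 and 240 min, against 230.4, 86.1, 38.1 and 133 CPM at 60, 75, 90 and 105 min (log2 change 2.83 ± 0.64 SE, adjusted p = 0.0371). LanB1, the laminin beta chain, had a log2 change of 2.99, which was 1.89 without the embryo of 225 min, and an adjusted p of 0.0685. apolpp, the lipoprotein of the fat body, stood at 1598 CPM at 225 min and at 5.43 to 14.7 CPM in the other embryos of 180 to 240 min, against 3.67 to 12.2 CPM at 60 to 105 min (adjusted p = 0.109). The blood cell genes Pxn and Hml reached at most 18.0 and 0 CPM at 180 to 240 min and at most 0 and 1.67 CPM at 60 to 105 min. LanA and NimC4 also passed without the libraries of 60 and 225 min, and 0 of the list passed without those of 210 and 225 min.

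Mesoderm and muscle gave no call. Of 11 tested genes of the ventral furrow and early mesoderm 0 passed, with a median of 0.14, which was -0.17 under spike-in scaling and 0.71 without the libraries of 60 and 225 min. twi, which specifies mesoderm, had 371, 119, 84.2, 22.8 and 374 CPM at 180, 195, 210, 225 and 240 min, against 435, 65.5, 395 and 305 CPM at 60, 75, 90 and 105 min (log2 change -0.54 ± 0.69 SE, adjusted p = 0.682). Of 8 tested muscle and heart genes 0 passed, and the median was 1.91, which was 0.88 without the libraries of 210 and 225 min and 1.12 without those of 60 and 225 min. Mef2, the muscle differentiation factor, had 22.0, 153, 112, 445 and 108 CPM at 180, 195, 210, 225 and 240 min, against 59.1, 5.04, 2.09 and 9.77 CPM at 60, 75, 90 and 105 min (log2 change 3.20 ± 0.96 SE, adjusted p = 0.0842). Without the embryo of 60 min, the highest of its group, Mef2 passed, with a log2 change of 4.97, a gap widened by construction. rst, of myoblast fusion, and the actin gene Act87E had log2 changes of 2.27 (adjusted p = 0.113) and 3.47 (adjusted p = 0.128), both with their highest value at 225 min. Without that embryo they were 1.17 and 2.14. Mef2, rst and eya passed without the libraries of 60 and 225 min.

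Of 18 tested genes of BMP signalling and the dorsal ectoderm 1 rose (5.56%, against 1.36% of all genes). peb, a zinc finger gene of the amnioserosa, had 137, 130.2, 218, 214 and 164 CPM at 180, 195, 210, 225 and 240 min, against 67.2, 8.71, 23.0 and 32.4 CPM at 60, 75, 90 and 105 min (log2 change 2.51 ± 0.54 SE, adjusted p = 0.0321). zen, an early dorsal homeobox gene, had 10.7, 1.36, 0, 0 and 2.47 CPM at 180, 195, 210, 225 and 240 min, against 54.0, 149, 44.4 and 4.27 CPM at 60, 75, 90 and 105 min (log2 change -4.24 ± 1.09 SE, adjusted p = 0.0524). Of 8 tested genes of the gut and Malpighian tubules 1 rose (12.5%, against 1.36% of all genes). This was ct, a homeobox gene of the tubules and of sense organs, with 6.01, 29.1, 41.0, 209 and 34.0 CPM at 180, 195, 210, 225 and 240 min, against 3.54, 2.75, 0.419 and 0 CPM at 60, 75, 90 and 105 min (log2 change 5.25 ± 1.10 SE, adjusted p = 0.0297). fkh, of the foregut, hindgut and salivary gland, had a log2 change of 1.21 (adjusted p = 0.158), which was 0.69 without the embryo of 210 min. srp, of the endoderm and blood, had one of 0.32 (adjusted p = 0.76). Cell death genes gave 0 calls of 7. hid, an inducer of apoptosis, had 164, 344, 118, 346 and 233 CPM at 180, 195, 210, 225 and 240 min, against 103, 129, 52.3 and 92.8 CPM at 60, 75, 90 and 105 min (log2 change 1.43 ± 0.37 SE, adjusted p = 0.0538). Diap1, which blocks caspases, had a log2 change of 1.78 (adjusted p = 0.0678), and the caspase Dronc one of -3.44 (adjusted p = 0.0685). The 4 genes of neural columns and Sox factors, 11 of glycolysis, 7 of heat shock and chaperones and 12 of dosage compensation and sex that were tested also gave 0 calls. Their median log2 changes were 0.46, -0.31, 0.37 and 0.49. The first was 1.27 without the libraries of 60 and 225 min, and the second and the third were -0.71 and -0.01 without those of 210 and 225 min. lncRNA:roX1, an RNA of the dosage compensation complex, had 412 to 1221 CPM at 180 to 240 min and 244 to 826 CPM at 60 to 105 min (adjusted p = 0.168).

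Among the other genes with the largest rises, ttk, a repressor of neural fate, had 72.8, 166, 346, 1206 and 204 CPM at 180, 195, 210, 225 and 240 min, against 45.5, 10.5, 2.51 and 8.55 CPM at 60, 75, 90 and 105 min. It did not overlap, with the highest value at 225 min, and the rise was 4.64 ± 0.96 on the log2 scale (SE, adjusted p = 0.0295). Obp99a, of the odorant-binding protein family, had 326, 1759, 744, 2792 and 792 CPM at 180, 195, 210, 225 and 240 min, against 78.8, 141, 44.8 and 139 CPM at 60, 75, 90 and 105 min and the smallest adjusted p of the genes named as rising (log2 change 3.74 ± 0.58 SE, adjusted p = 0.0151). smal had 132, 279, 241, 525 and 125 CPM at 180, 195, 210, 225 and 240 min, against 50.0, 10.1, 5.86 and 23.8 CPM at 60, 75, 90 and 105 min (log2 change 3.62 ± 0.67 SE, adjusted p = 0.0236). Drat and olf413 had log2 changes of 5.28 and 4.74, and ab, a BTB transcription factor, one of 3.96, each without overlap. Drat had 5.92 CPM at 240 min and 147.9 CPM at 195 min, against at most 3.66 CPM at 60 to 105 min. Inx2, a gap junction protein of epithelia chosen after its values were seen, had the smallest log2 change of the genes that rose (log2 change 1.27 ± 0.25 SE, adjusted p = 0.0236), with 6011, 8832, 4632, 8091 and 6755 CPM at 180, 195, 210, 225 and 240 min, against 3622, 1643, 3913 and 2825 CPM at 60, 75, 90 and 105 min.

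The embryo of 225 min stood apart in more than these genes. Of 2426 genes with at least 50 CPM there, 315 were above 3 times the highest of the other 8 embryos and 120 above 10 times. The same count of genes above 3 times ran from 0 to 25 for each of the other 8. wbl, pip, Pgant2, sug, hoka and ara, the genes furthest above the rest, had 147.5, 94.7, 103.3, 73.0, 59.2 and 56.2 CPM there and no count in the other 8. wbl and pip act in the egg chamber in dorsoventral patterning, pip is also active in salivary glands, and ara is a homeobox gene of the Iroquois complex. Their means over 255 to 315 min were 0 to 6.97 CPM.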

How the data were processed

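The deposited table holds whole-number counts of reads on each gene in each embryo, as the authors made them and with no scaling. The submitters' processing notes name CASAVA 1.8, Bowtie2 2.1.0 and HTSeq 0.5.4p3 with build BDGP5. The sources used here do not give the strand setting of the counting, so overlapping and antisense genes cannot be told apart. The deposited sample sheet, of the other kind of value, gave each embryo's library pool. The table held 15682 fly gene rows, 92 spike-in rows and 5 summary rows. Library sizes and tests used the gene rows alone, which took 61.0% of all counts of the 9 libraries. Symbols were found for 15002 rows, and rows without one, with 9.32% of gene counts, are not named. The reference annotation was of another build, so no coordinates are given.

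Genes were filtered with filterByExpr, scaled by TMM and tested with the quasi-likelihood test of edgeR 4.0.16 (limma 3.58.1, R 4.3.3), over the 9 embryos alone, 180 to 240 min over 60 to 105 min. P-values were adjusted by Benjamini and Hochberg over all tested genes. Standard errors are the log2 change divided by the square root of F. CPM uses plain library totals, while log2 changes use TMM. Labels name no mothers or plates, and p-values cover only variation among the 9 embryos, which may be technical.

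Named genes are the 12 largest rises and the 12 largest falls among genes past the threshold whose higher group averaged 50 CPM or more, leaving out symbols that are CG or CR numbers, members of gene lists by role, and the 6 genes furthest above the rest at 225 min. Embryos, members and lists were chosen with earlier results of these data known. The proteasome list and the libraries of 60 min left out were chosen after their values were seen. Alternatives were DESeq2 1.42.0, limma voom, other scalings, filters and designs, and libraries left out. Symbols of some list genes did not match, and those genes are not analysed here. Counting precision is set by depth, and no pair of libraries had identical counts.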

Additional observations from a re-analysis of the deposited data

Results flagged for a closer look

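For each named gene, the gap of the highest and of the lowest embryo to its nearest neighbour was divided by the range of its group, and a gap above Dixon's 95% critical value for the group's size was taken as a sample far from the others. Chance would mark about 1 in 20 groups of normally distributed values. CPM within a group hold zeros and change over time, so the rate here is not known. Where all other embryos had no count, as for slam and lab, the result is 1 by construction. In each group 97 values were looked at. Values in parentheses are that gap over the range.

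At 180 to 240 min the embryo of 225 min was highest and stood apart for ct (0.828), olf413 (0.788), ttk (0.759), LanA (0.901), ab (0.78), elav (0.812), fne (0.962), dap (0.861), sas (0.864), vvl (0.93), LanB1 (0.743), apolpp (0.994), rst (0.899) and Act87E (0.777). That of 180 min was highest for slam (1), Elba3 (0.949), ftz (0.867) and zen (0.769). The shallow library of 210 min was highest for STUB1 (0.89), fkh (0.766) and the spike-in share (0.939), and lowest for N (0.755) and lncRNA:roX1 (0.764).

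At 60 to 105 min the embryo of 60 min was highest for en (0.991), lab (1), abd-A (0.929), trh (0.882), Mef2 (0.865) and rst (0.883), and lowest for Prosbeta5 (0.84). That of 75 min was highest for smg (0.835) and E(spl)mbeta-HLH (1), and that of 90 min for Sxl (0.952).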

How the results depend on the processing

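No paired analysis was possible because replicate numbers were given in the order of the labelled times and pair no embryos between the groups. The 82 higher and 97 lower calls became 45 and 62 under spike-in scaling, which moved the median log2 change of all genes to -0.269 (against 0.0427), 369 and 339 by DESeq2's Wald test, and 264 and 236 with 5 groups of -15 to 315 min sharing the spread. With a linear trend over labelled time they were 16 and 23. Without a low-count filter, 187 genes were higher and 139 lower, a split of 57.4% higher among the calls against 45.8%. DESeq2 size factors gave 73 and 93, limma voom 92 and 142, and at least 5 CPM in 4 libraries 82 and 96. Leaving out 1 embryo at a time gave 0 to 152 higher and 0 to 164 lower. Without the libraries of 210 and 225 min there were 17 and 24, without those of 60 and 225 min 220 and 274, and without those of 60, 210 and 225 min 249 and 293. The last of these were chosen after seeing the data. The cause of these shifts was not tested.

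Of 95 named genes with a test, 43 passed it, and those 43 kept their sign in all 20 alternatives. Their calls were not kept: all 43 were lost when the embryo of 75, 90, 105 or 195 min was left out. Without the libraries of 210 and 225 min, 35 of the 43 were lost. Signs turned for 3 other named genes, all far from passing. Delta had a log2 change of -0.187 under spike-in scaling and -0.104 to 0.452 when 1 embryo was left out. srp had -0.203 under spike-in scaling and -0.0352 to 0.77 when 1 embryo was left out, and twi had 0.23 without the libraries of 60, 210 and 225 min. The 439350 gene counts at 210 min limit what low levels there can show.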

Other observations

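Sxl, the switch gene of female development, varied between single embryos within both groups. It had 1171, 787, 97.9, 213 and 839 CPM at 180, 195, 210, 225 and 240 min, against 171, 136, 1423 and 198 CPM at 60, 75, 90 and 105 min, and the groups overlapped with an adjusted p of 0.772 by edgeR. The labels give no sex for these embryos.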
